A study of Mus musculus with 7 samples.

Results

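Tumour cells that carry transcripts of both Cdh1, which encodes the epithelial adhesion protein E-cadherin, and Vim, which encodes the mesenchymal intermediate filament vimentin, were described in single wells of mouse mammary tumours. A well was kept when it held at least 500 transcripts of mouse genes, and a gene was taken as detected when its deposited value was above 0.5. Of the 600 wells in the series, 140 were solid tumour wells of the second experiment that passed this depth. In 43 of these 140 wells both genes were detected, and they are called double-positive here. Cdh1 was detected without Vim in 31 wells (Cdh1-only), Vim without Cdh1 in 24 (Vim-only) and neither gene in 42. The wells were chosen by their measured Cdh1 and Vim values, so the levels of Cdh1 and Vim are described and not tested.

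All wells came from mice with PyMT mammary tumours, which are driven by the polyoma middle T oncogene. The promoter, strain, age and number of mice are not given in the sources used here. Cells of 4 libraries were sorted by E-cadherin into a positive and a negative solid tumour population, called Ecad-positive and Ecad-negative here, and blood cells labelled as circulating tumour cells were sorted into an E-cadherin negative (BEn) and, in library 1, a positive (BEp) population. Each well was sequenced by CEL-seq, which tags molecules at the 3' end with a well barcode and a molecular barcode. In the first experiment, 3 further libraries are labelled as E-cadherin positive tumour cells. Library 2 of these held 17 Vim-only wells and 28 with neither gene among 65, at a median of 883 transcripts. A missing Cdh1 transcript at this depth does not show that a cell lacked the protein, and whether these wells match the label was not tested. The double-positive wells numbered 14, 17, 5 and 7 in libraries 1 to 4, of which 6, 7, 3 and 4 were Ecad-positive and 8, 10, 2 and 3 were Ecad-negative. Ecad-negative wells thus made up 23 of the 43 double-positive wells, 8 of the 31 Cdh1-only wells and 21 of the 24 Vim-only wells.

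E-cadherin holds neighbouring epithelial cells together at adherens junctions, and its loss together with a gain of vimentin is the textbook readout of epithelial-to-mesenchymal transition (EMT). Transcription factors of the Snail, Zeb and Twist families repress Cdh1 during this transition, and cells that hold both markers are often described as intermediate. Vimentin is also made by endothelial cells, fibroblasts, pericytes and leukocytes, all of which are found in a mammary tumour. Luminal mammary cells are marked by Epcam, Krt8 and Krt18, and in PyMT tumours they often keep milk genes such as Csn3.

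The double-positive wells held 716 to 61227 transcripts with a median of 2688, against 530 to 7926 with a median of 1995 in Cdh1-only wells. Summed over wells, the double-positive class held 47174, 127566, 18871 and 10679 transcripts in libraries 1 to 4, and the Cdh1-only class 18948, 22396, 12789 and 9519. An Ecad-negative well of library 2 with 61227 transcripts made up 48% of the double-positive sum of that library. The 4 libraries share 72 of the 96 well barcodes. The labels do not tie the libraries to different animals, and every p-value here is therefore a statement about these 4 libraries, whose spread could be technical. Intervals given below cover counting error only.

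The rule genes were near the limit of detection. In the 43 double-positive wells Cdh1 stood at 1 transcript in 21 wells, at 2 in 13 and at 3 or more in 9, and Vim at 1 in 18, at 2 in 8 and at 3 or more in 17. Both genes stood at a count of 1 in 9 wells, 7 of them Ecad-positive and 2 Ecad-negative. The wells just inside the threshold had a value of 1 for a gene and those just outside had 0. The highest Cdh1 value, 53 transcripts beside 6 of Vim, was that of the Ecad-negative well with 61227 transcripts. Vim was higher in the Ecad-negative than in the Ecad-positive double-positive wells in all 4 libraries, at 13.02, 7.22, 16.6 and 41 against 3.51, 3.53, 5.25 and 5.2 per 10000 transcripts. Cdh1 stood at 5.97, 7.79, 5.52 and 13.7 per 10000 in Ecad-negative and at 4.56, 4.03, 10.5 and 9.09 in Ecad-positive double-positive wells. The Cdh1 ranges of the 2 sorts overlapped.

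The median of transcripts per well was higher in double-positive than in Cdh1-only wells in all 4 libraries, by ratios of 1.19, 1.24, 1.85 and 1.02 and a geometric mean of 1.29 (exact two-sided permutation test over libraries, p = 0.13, the smallest p that 4 libraries allow). Within Ecad-positive the 4 ratios were 1.59, 1.35, 2.10 and 1.51, and within Ecad-negative they were 0.959, 1.65, 1.22 and 0.476. Relative to the spike-in RNA added to each well the direction differed, with ratios of transcripts per spike-in molecule of 0.961, 0.909, 0.901 and 1.08 (exact permutation p = 0.375).

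**Figure D1:**
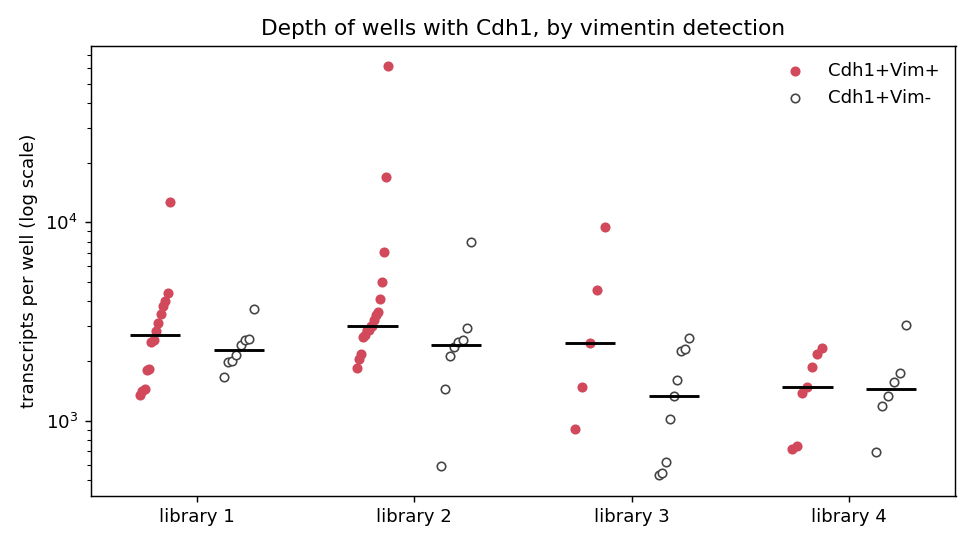
Transcripts per well on a log axis for the 43 double-positive (red) and 31 Cdh1-only (open) wells of each library, with the median as a bar. The double-positive median is the higher of the pair in all 4 libraries, by a ratio of 1.02 in library 4 and 1.85 in library 3, and 1 double-positive well of library 2 reaches 61227 transcripts.

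Cdh1 was detected in 43 of the 67 tumour wells with Vim, a share of 64.2% (exact Clopper-Pearson 95% interval 51.5 to 75.5%), and in 31 of the 73 wells without Vim, a share of 42.5% (31 to 54.6%). When every well was thinned at random to 500 transcripts, the shares were 18.2% (7.0 to 35.5%) and 21.5% (14.1 to 30.5%), so the higher share in wells with Vim was not seen at matched depth. A second random draw gave 23.5% and 22.6%. After the first draw 6 of the 43 wells still held both genes, 7 held Cdh1 only, 13 held Vim only and 17 held neither. A Cdh1-only well is therefore not shown to lack Vim at this depth.

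Cdh1 transcripts were also found in wells sorted from blood. Among the 60 BEn wells, which expressed the leukocyte gene Tyrobp in 95% of wells, 33.3% held a Cdh1 transcript (21.7 to 46.7%) at a median depth of 819 transcripts, and 13 held both Cdh1 and Vim. After thinning the share with Cdh1 was 18.3% in BEn (9.5 to 30.4%), 15.9% in Ecad-negative and 25.4% in Ecad-positive (15.8 to 37.1%). A second draw gave 13.3% in BEn (5.94 to 24.6%) and 20.3% in Ecad-negative (11.6 to 31.7%), so the order of these 2 shares turned with the draw. At matched depth Cdh1 detection in Ecad-negative tumour wells could not be told from that in these blood wells. In the 20 BEp wells 1 held Cdh1, a share of 5% at a median of 3803 transcripts.

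**Figure D2:**
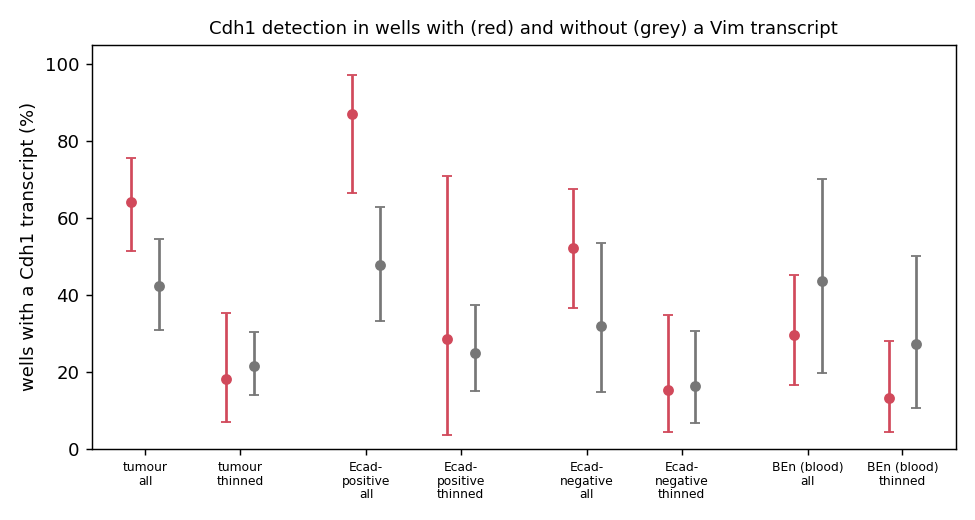
Percent of wells with a Cdh1 transcript among wells with a Vim transcript (red) and without one (grey), with exact 95% intervals, for tumour wells, each tumour sort and the BEn wells, with all transcripts and after thinning to 500. The gap of 64.2% against 42.5% in tumour wells is 18.2% against 21.5% after thinning, and the intervals of each thinned pair overlap.

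The first comparison asked which other genes differed between double-positive and Cdh1-only wells when the sorts were pooled. Igfbp3, a secreted binding protein of insulin-like growth factors, was higher in the double-positive wells. Its summed level was 13.4, 3.31, 6.39 and 4.71 per 10000 transcripts in libraries 1 to 4, against 1.06, 0.898, 0.786 and 0 in Cdh1-only wells, and the groups did not overlap. The Cdh1-only level rests on 5 transcripts in all. Igfbp3 was detected in 20 of the 43 double-positive wells. The highest of these, both Ecad-negative wells of library 1, held 25 and 24 of its 122 transcripts. In edgeR's quasi-likelihood test with library as a block, the log2 difference of Igfbp3 was 3.09 (SE 0.53, adjusted p = 0.00544). It was the only gene called of 249 tested, which is 0.402%, and 12 genes had an unadjusted p under 0.05. The filter on low counts was set over all classes. Igfbp3 passed it only with its levels in Vim-only wells, which lie outside this comparison. DESeq2 also called 1 gene. Without library 1 no gene was called, and Igfbp3 was then at 2.71.

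Sparc, Col4a1, Col4a2, Tmsb4x and Clu had a higher level in the double-positive wells of all 4 libraries without passing the test. Sparc, a matrix-binding glycoprotein, was at 19.4, 19.9, 16.5 and 22.6 per 10000 in double-positive and at 16.5, 8.53, 5.50 and 3.17 in Cdh1-only wells, a log2 difference of 1.12 (SE 0.38, adjusted p = 0.425 in edgeR). Col4a1 and Col4a2, which encode the paired chains of basement membrane collagen IV, differed by 1.82 (SE 0.53, adjusted p = 0.289) and 2.62 (SE 0.82, adjusted p = 0.342). Col4a1 was at 10.9, 14.6, 7.46 and 5.65 per 10000 against 4.25, 2.69, 4.72 and 0, with no overlap between the groups. Tmsb4x, the actin monomer binder thymosin beta 4, was at 49.2, 29.9, 44.2 and 30.1 against 36.6, 22.4, 31.4 and 22.2, a log2 difference of 0.48 (SE 0.14, adjusted p = 0.289). Its groups overlapped, since libraries 1 and 3 of the Cdh1-only wells exceeded libraries 2 and 4 of the double-positive wells. Clu, a secreted chaperone, differed by 1.08 (SE 0.38, adjusted p = 0.478). In the other direction the genes with the lowest p-values included Gapdh, a glycolytic enzyme, at -0.36, Tuba1b, a tubulin, at -0.67 and Hspb1, a small heat shock protein, at -0.77, each with an adjusted p of 0.804.

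**Figure D3:**
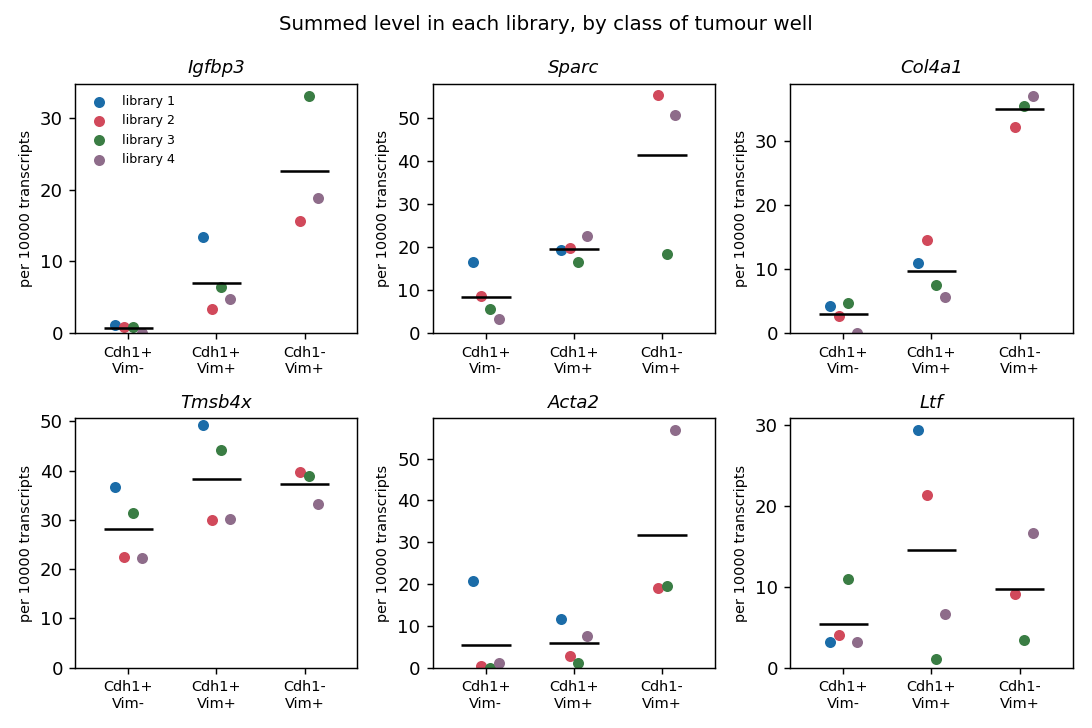
Summed level per 10000 transcripts of 6 genes in each library (coloured points, with the mean over the libraries drawn as a bar) for Cdh1-only, double-positive and Vim-only wells, with linear axes from 0. Library 1 is left out of the Vim-only class, where it holds 1 well. Igfbp3 and Col4a1 order the classes from Cdh1-only through double-positive to Vim-only without overlap. The sorts are pooled here, and Ecad-negative wells make up 8 of 31, 23 of 43 and 21 of 24 wells in the same order. The part of the sort in this order was not tested. Ltf is highest in libraries 1 and 2 of the double-positive wells, where single wells held 122 and 198 of its 418 transcripts.

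With each well thinned to 500 transcripts, so that every well had the same weight, 3 of 103 tested genes were called, which is 2.91%, and all 3 were higher in double-positive wells. The thinned counts of Igfbp3 were 17, 5, 3 and 1 in libraries 1 to 4 against 1, 0, 0 and 0 in Cdh1-only wells (log2 difference 3.76, SE 0.77, adjusted p = 0.00165 in edgeR). Those of Sparc were 16, 38, 9 and 11 against 4, 4, 2 and 0 (2.38, SE 0.48, adjusted p = 0.00165). Those of Tmsb4x were 40, 38, 9 and 18 against 15, 6, 16 and 6 (0.93, SE 0.26, adjusted p = 0.0465). The filter on low counts again covered all classes, the Vim-only wells included. Per 10000 thinned transcripts Sparc stood at 22.9, 44.7, 36 and 31.4 against 10, 10, 4.44 and 0, with no overlap. Without library 2 no gene was called, Igfbp3 being at 3.68 there, and without library 1 there was 1 call. With classes assigned after thinning 0 genes were called.

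The share of Ecad-negative wells differed between the classes, at 23 of 43 against 8 of 31, so the comparison was repeated with the sort as a term in the fit. With edgeR 0 of 272 tested genes were called (0%), and 16 had an unadjusted p under 0.05. The log2 difference was 2.44 for Igfbp3 (SE 0.73, adjusted p = 0.193) and 0.41 for Sparc (SE 0.37, adjusted p = 0.985). Ltf, which encodes the milk and neutrophil iron binder lactoferrin, had the smallest p in this fit, with a difference of 2.01 (SE 0.56, adjusted p = 0.193). Its level rested on few wells, since the highest double-positive wells held 198, 122 and 38 of its 418 transcripts. Col4a2 stood at 2.58 and Tmsb4x at 0.57, each with an adjusted p of 0.193. Without library 2 there were 2 called genes.

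Within Ecad-positive, where double-positive wells numbered 6, 7, 3 and 4 and Cdh1-only wells 4, 6, 8 and 5, 0 of 272 genes were called (0%) in edgeR and 10 had an unadjusted p under 0.05. Matrix genes showed no common direction here, and their errors were wide. Sparc was at 1.05, 6.30, 5.25 and 1.30 per 10000 in double-positive against 6.93, 5.34, 1.91 and 1.26 in Cdh1-only Ecad-positive wells, a log2 difference of -0.11 with an SE of 0.60. Col4a1 differed by -0.25 (SE 1.02). The smallest p in Ecad-positive was that of Ltf, at 45.6, 14.6, 1.5 and 6.5 per 10000 against 1.98, 3.73, 3.81 and 3.79 (log2 difference 2.20, SE 0.73, adjusted p = 0.957). Ltf was higher in libraries 1, 2 and 4 and lower in library 3. The level in library 1 rested largely on 1 well with 122 Ltf transcripts. Car6, a secreted carbonic anhydrase, and Ier3, an immediate early gene, differed by 1.92 and 1.36, each with an adjusted p of 0.957. Leaving out library 1 gave 2 calls and leaving out library 2 gave 1.

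Within Ecad-negative only libraries 1 and 2 held at least 2 wells of both classes, and 0 of 272 genes were called (0%) in edgeR, with 19 at an unadjusted p under 0.05. Igfbp3 was at 33.6 and 3.67 per 10000 in the double-positive Ecad-negative wells of libraries 1 and 2 and at 2.29 and 2.83 in the Cdh1-only ones (log2 difference 2.94, SE 1.01, adjusted p = 0.387). Col4a2 was at 9.77 and 6.76 against 1.15 and 0 (3.49, SE 1.14, adjusted p = 0.335). Sparc was at 47.7 and 26 against 27.5 and 25.4 (0.73, SE 0.49, adjusted p = 0.888). With library 2 left out 3 genes were called, and with library 1 left out 2, each from the single library that then held both classes. The difference of the effect between Ecad-negative and Ecad-positive was tested in the same fit, and 0 of 272 genes were called (0%) in edgeR with 13 at an unadjusted p under 0.05.

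None of the tested epithelial and luminal genes was called between the 2 classes. Of the epithelial list, Cldn3, Epcam, Krt18 and Krt8 were abundant enough to test among 16 measured, and none was called, with a median log2 difference of -0.32 against -0.02 over all tested genes. Epcam, the epithelial adhesion molecule, was at 9.38, 12.4, 12.3 and 12.2 per 10000 in double-positive and at 10.1, 17.1, 23.6 and 10.6 in Cdh1-only wells. It was detected in 36 of 43 and 23 of 31 wells. Epcam, Krt8 or Krt18 was found in 40 of the 43 double-positive wells, including all 20 Ecad-positive wells and 20 of the 23 Ecad-negative wells. In the BEn wells this share was 41.7%, at a median of 819 transcripts against 2688 in double-positive wells. These shares were not matched for depth, and the double-positive wells were chosen for an epithelial transcript.

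Of the luminal and milk list 7 of 17 measured genes were tested and none was called, with a median of -0.11. Csn3, which encodes kappa-casein, was at 99.3, 124, 73.5 and 108 per 10000 in double-positive and at 90.3, 66, 106 and 250.3 in Cdh1-only wells. Csn3, the whey-type protein gene Wfdc18 and the iron scavenger gene Lcn2 were each present in all 43 double-positive wells. At least 1 of these milk genes was lacking in 1 Cdh1-only well, and 33.3% of the BEn wells held all 3. After thinning Csn3 was found in 39 of the 43 double-positive wells and in 33.3% of BEn wells. Against Cdh1-only wells the thinned log2 difference was -0.62 for Csn3 (SE 0.27) and -0.58 for Lcn2 (SE 0.25), each with an adjusted p of 0.373 in edgeR. Lcn2 was higher in double-positive wells in 0 of 4 libraries and Csn3 in 1. The list members Trf at -0.48 and Wfdc18 at 0.15 were not called either.

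The mesenchymal and matrix list took a larger share of transcripts in double-positive wells of every library. It came to 0.577, 0.522, 0.447 and 0.490% against 0.441, 0.247, 0.259 and 0.169% in Cdh1-only wells, and the groups did not overlap (exact permutation p = 0.13). Of 19 measured genes 3 were tested, Sparc, Col4a1 and Col4a2, and none was called without thinning. Within Ecad-positive the list came to 0.123, 0.199, 0.187 and 0.0520% in double-positive and 0.317, 0.171, 0.134 and 0.152% in Cdh1-only wells, which overlapped (exact permutation p = 0.5).

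Transcription factors of EMT were too rare to test. Zeb1 gave 9 transcripts in 5 double-positive wells, all of them Ecad-negative, and 0 in the 31 Cdh1-only wells. A count of 0 in 31 wells allows up to 9.68% of wells with a detected transcript and sets no limit on cells that express the gene. Only 8 of these 31 wells were Ecad-negative, and a count of 0 in 8 wells allows up to 37.5%. Snai2 gave 4 transcripts in 4 double-positive Ecad-negative wells, and 2 in 1 Cdh1-only well. Snai1 gave 5 transcripts in 5 double-positive wells, 3 of them Ecad-positive, and 1 in Cdh1-only wells. Zeb2 gave 1 transcript in each class. Twist1 gave 0 transcripts in the 43 double-positive wells, where the limit on wells with a detected transcript is 6.98%, and 1 in the Cdh1-only wells. Cdh2, which encodes N-cadherin, gave 3 transcripts in 1 double-positive Ecad-negative well.

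The list of vimentin partners and cytoskeleton includes the abundant genes Actb, Actg1, Cfl1 and Tmsb4x. It was at like shares, with 2.19, 1.83, 2.08 and 1.86% of transcripts in double-positive and 2.59, 1.44, 2.53 and 1.66% in Cdh1-only wells. Of 25 measured genes 7 were tested and none was called without thinning, with a median of 0.03. TGF-beta response genes came to 0.343, 0.250, 0.208 and 0.292% against 0.377, 0.108, 0.236 and 0.158%, and the only member tested was Pmepa1, an inhibitor of this pathway, at 0.77 (SE 0.42, adjusted p = 0.804). Proliferation genes were at 0.237, 0.240, 0.336 and 0.264% in double-positive and at 0.276, 0.471, 0.432 and 0.454% in Cdh1-only wells, lower in all 4 libraries (exact permutation p = 0.13). After thinning the mean share was 0.275% in double-positive and 0.265% in Cdh1-only wells. Glycolysis genes were at 0.237, 0.228, 0.234 and 0.226% against 0.255, 0.296, 0.330 and 0.306%, also lower in all 4 libraries without overlap (exact permutation p = 0.13).

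The endothelial list took 0.122, 0.175, 0.165 and 0.160% of transcripts in double-positive wells and 0.0637, 0.0359, 0.0943 and 0.0634% in Cdh1-only wells (exact permutation p = 0.13), with no overlap. Cdh5, which encodes the endothelial junction protein VE-cadherin, was detected in 15 of the 43 double-positive wells and in 1 of the 31 Cdh1-only wells. The endothelial receptor gene Kdr was detected in 6 and 1 of these wells and the endothelial gene Egfl7 in 0 of the 43, with the same limit of 6.98% on wells with a detected transcript. Of the same list Sparcl1 was abundant enough to test and differed by 0.85 (SE 0.42, adjusted p = 0.804 in edgeR), higher in 3 of 4 libraries. How much of the list share rests on Sparcl1 was not tested. Cdh5 was found in 6.67% of the BEn wells (exact interval 1.85 to 16.2%). Fibroblast, leukocyte and neutrophil genes overlapped between the classes. Fibroblast genes came to 0.0874, 0.0347, 0.0959 and 0.0377% against 0.0478, 0.0718, 0.0314 and 0.0634%, and pericyte genes to 6 against 2 transcripts in all. Ptprc, the defining leukocyte gene, gave 0 transcripts in both classes, and the leukocyte list came to 0.0221 to 0.0959% in double-positive and 0.0269 to 0.0865% in Cdh1-only wells. The neutrophil genes S100a8 and S100a9 were found in 42 and 40 of the 43 double-positive wells and in 23 and 27 of the 31 Cdh1-only wells, at a list share of 0.101 to 0.395% against 0.110 to 0.338%. S100a9 was found in all 60 BEn wells.

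Igfbp3, Sparc and Col4a1 were examined in the double-positive wells with and without a Cdh5 transcript, a split chosen after the data were seen. Of 15 wells with Cdh5, 13 were Ecad-negative, and their median level of Sparc was 85.6 per 10000, against 3.78 in the 28 wells without Cdh5, of which 18 were Ecad-positive. Col4a1 had medians of 41.9 and 0.296 and Igfbp3 of 6.97 and 0. Summed over wells, the measure used elsewhere here, Sparc was at 28.6 with and 10.7 without Cdh5, and Igfbp3 at 7.68 and 4.33. Within Ecad-negative the Sparc medians were 86.4 in 13 wells and 27.5 in 10, but the summed levels were 31.3 with and 32.4 without Cdh5. Igfbp3 turned in the same way there, with medians of 13.97 and 0 and summed levels of 8.51 and 13.03. The level of 13.03 rests on 33 transcripts in 3 of the 10 wells, and 1 well of library 1 held 24 of them. The summed level of the wells with Cdh5 includes the well with 61227 transcripts. When all wells with Cdh5 were left out, Igfbp3 was too rare to be tested, and the called genes were Ahdc1, which encodes an AT-hook protein, at 1.83 and Ltf at 2.14 (edgeR adjusted p = 0.0194 for each). The Ecad-positive well with 122 Ltf transcripts remained in this fit. Sparc was then at 0.22 and Col4a1 at 0.42, each with an adjusted p of 0.991. With these wells left out of the thinned comparison 0 of 88 genes were called. Beyond these values the part of endothelial transcripts in the differences was not tested.

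**Figure D4:**
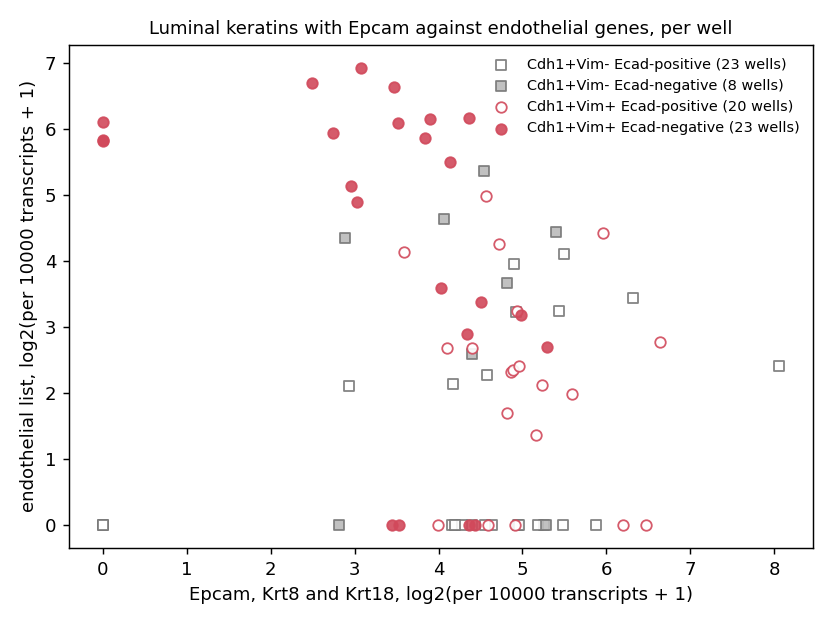
Level of Epcam, Krt8 and Krt18 together (horizontal) against the endothelial list (vertical) in each double-positive and Cdh1-only well, as log2 of transcripts per 10000 plus 1. Double-positive Ecad-negative wells (filled red) reach the top of the plot, where 12 of 23 lie above every Cdh1-only well, while the 20 double-positive Ecad-positive wells (open red) all carry epithelial transcripts.

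The well plot shows how the double-positive wells differed among themselves. Endothelial genes had a median of 44.5 per 10000 in the 23 Ecad-negative wells, with a range of 0 to 121, and of 4.05 in the 20 Ecad-positive wells, with a range of 0 to 30.8. The highest Cdh1-only well was at 40.3. In 12 double-positive wells, all Ecad-negative, the level was above that. Epcam, Krt8 and Krt18 together had a median of 10.6 per 10000 in Ecad-negative and of 28.9 in Ecad-positive double-positive wells. Of the 13 Ecad-negative wells with Cdh5, 11 also held Epcam, Krt8 or Krt18. Whether such wells held transcripts of more than a single cell was not tested. Basal keratin Krt5 was found in 7 of the Ecad-negative and in 0 of the Ecad-positive double-positive wells, where a count of 0 allows 15% of wells with a detected transcript at this depth. The Ecad-negative well with 61227 transcripts held 18 of the 32 Krt5 transcripts, 99 of Epcam and 3 of Cdh5.

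The second comparison set double-positive against Vim-only wells in libraries 2 to 4, since library 1 held 1 Vim-only well. The wells of these classes have Vim by the rule, and 21 of the 24 Vim-only wells were Ecad-negative, against 23 of the 43 double-positive wells. This comparison was not adjusted for sort, so class and sort cannot be told apart in it. In edgeR 4 of 249 genes were called, which is 1.61%, all 4 lower in double-positive wells, and 39 had an unadjusted p under 0.05. The filter on low counts let in genes that were high in Vim-only wells alone, and Igfbp3 passed it only with its levels in those wells. Acta2, smooth muscle actin of myoepithelial cells, pericytes and activated fibroblasts, was at 2.92, 1.07 and 7.53 per 10000 in double-positive and at 19, 19.5 and 56.8 in Vim-only wells. Its log2 difference was -3.49 (SE 0.49, adjusted p = 0.000519), and the groups did not overlap. Igfbp3 was at 3.31, 6.39 and 4.71 against 15.7, 33.2 and 18.9 and fell by 2.37 (SE 0.38, adjusted p = 0.00138). Col4a1 was at 14.6, 7.46 and 5.65 against 32.2, 35.5 and 37.1 and fell by 2.16 (SE 0.46, adjusted p = 0.0183). The ribosomal RNA gene Rn45s fell by 1.34 (SE 0.32, adjusted p = 0.0397), with 15.4, 17 and 10.4 per 10000 against 49.5, 28.6 and 20.4.

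Genes near the threshold in this comparison included Sparc at -1.34 (SE 0.36, adjusted p = 0.0642) and Col4a2 at -1.98 (SE 0.60, adjusted p = 0.093). None of the 4 tested epithelial genes was called, with a median log2 difference of 0.64 against -0.01 over all genes tested, and none of 7 luminal and milk genes, with a median of 0.59. The luminal and milk list came to 4.69, 3.27 and 4.28% of transcripts in double-positive and to 3.04, 2.15 and 2.41% in Vim-only wells of libraries 2 to 4. The endothelial list was at 0.175, 0.165 and 0.160% against 0.330, 0.275 and 0.265%, and the basal and myoepithelial list at 0.0938, 0.0799 and 0.217% against 0.537, 0.321 and 1.26%. When wells with Cdh5 were left out, 16 genes were called, 5 higher and 11 lower in double-positive wells. Acta2 and Col4a1 were among the lower genes at -3.86 and -3.88. After thinning to 500 transcripts 1 gene was called, Igfbp3 at -2.19. The count was 7 without library 1, 13 without library 3 and 2 without library 4. Igfbp3 and Col4a1 entered both comparisons through the same double-positive wells, so the 2 results share those samples.

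The third comparison, added after the data were seen, set the Ecad-negative against the Ecad-positive wells within the double-positive class. The sort was a label and not part of the Cdh1 and Vim rule, but a contrast of the 2 sorts over all tumour wells was already known from these data, so this is not independent support for it. In edgeR 10 of 272 genes were called, which is 3.68%, 7 higher and 3 lower in Ecad-negative. Sparc was at 47.7, 26, 44.2 and 78.6 per 10000 in Ecad-negative and at 1.05, 6.30, 5.25 and 1.30 in Ecad-positive wells (log2 difference 3.65, SE 0.42, adjusted p = 4.94e-07). Col4a1 was at 26, 20.5, 23.9 and 20.5 against 1.05, 1.51, 0.750 and 0 (4.49, SE 0.66, adjusted p = 2.88e-05), and Col4a2 at 9.77, 6.76, 12.9 and 3.42 against 0.351, 1.01, 0.750 and 0 (3.66, SE 0.62, adjusted p = 0.000229). These 3 matrix genes did not overlap between the sorts.

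Igfbp3 also rose in Ecad-negative, from 0.351, 2.52, 1.5 and 0 per 10000 in Ecad-positive to 33.6, 3.67, 18.4 and 17.1 (log2 difference 3.34, SE 0.63, adjusted p = 0.000896). The contractile genes Mylk, the myosin light chain kinase, at 3.92 (SE 0.83, adjusted p = 0.00329) and Acta2 at 2.40 (SE 0.69, adjusted p = 0.0478) were called higher, yet both rested on some libraries. Acta2 was at 29.3, 3.09, 0 and 20.5 in Ecad-negative against 0.351, 2.52, 1.5 and 2.6 in Ecad-positive, so library 3 went the other way. Mylk gave 0 transcripts in both sorts of library 3. Actb, cytoplasmic actin, was at 49.4, 38.3, 64.4 and 34.2 against 33, 30.001, 27.7 and 27.3 (0.78, SE 0.20, adjusted p = 0.0169), without overlap.

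The 3 genes lower in Ecad-negative were secretory. Wfdc18 was at 49.9, 83.7, 35 and 17.1 per 10000 in Ecad-negative and at 261, 96.3, 111 and 178 in Ecad-positive (-1.39, SE 0.37, adjusted p = 0.026). Car6 and Scgb1b27, a secretoglobin, stood at -4.09 and -3.37 (adjusted p = 0.00219 and 0.0108). An Ecad-positive well of library 2 with 2688 transcripts held 128 of the 182 Car6 and 146 of the 211 Scgb1b27 transcripts of the double-positive wells, 70.3% and 69.2%. Car6 was lower in Ecad-negative in libraries 1 to 3 and higher in library 4, and Scgb1b27 in Ecad-positive was at 0.702, 40.8, 24 and 0 against 2.17, 1.15, 1.84 and 0 in Ecad-negative. Leaving out the Ecad-negative well with 61227 transcripts gave 19 called genes. Leaving out wells with Cdh5 gave 16, 12 higher and 4 lower in Ecad-negative, with Sparc at 3.58, Acta2 at 3.59 and Col4a1 at 3.12, while Igfbp3 at 2.84 (adjusted p = 0.106) and Actb at 0.31 (adjusted p = 0.608) were not called. Thinning gave 6 called genes, and there were 6 without library 3. Sparc and Col4a1 were called in every alternative run for this comparison. Igfbp3 was not called without library 1, at 2.20 (adjusted p = 0.0598). Acta2 and Actb each lost the call in 5 of these alternatives, with values down to 1.10 (adjusted p = 0.683) and 0.31. Wfdc18 lost it in 3 and Igfbp3 in 2.

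**Figure D5:**
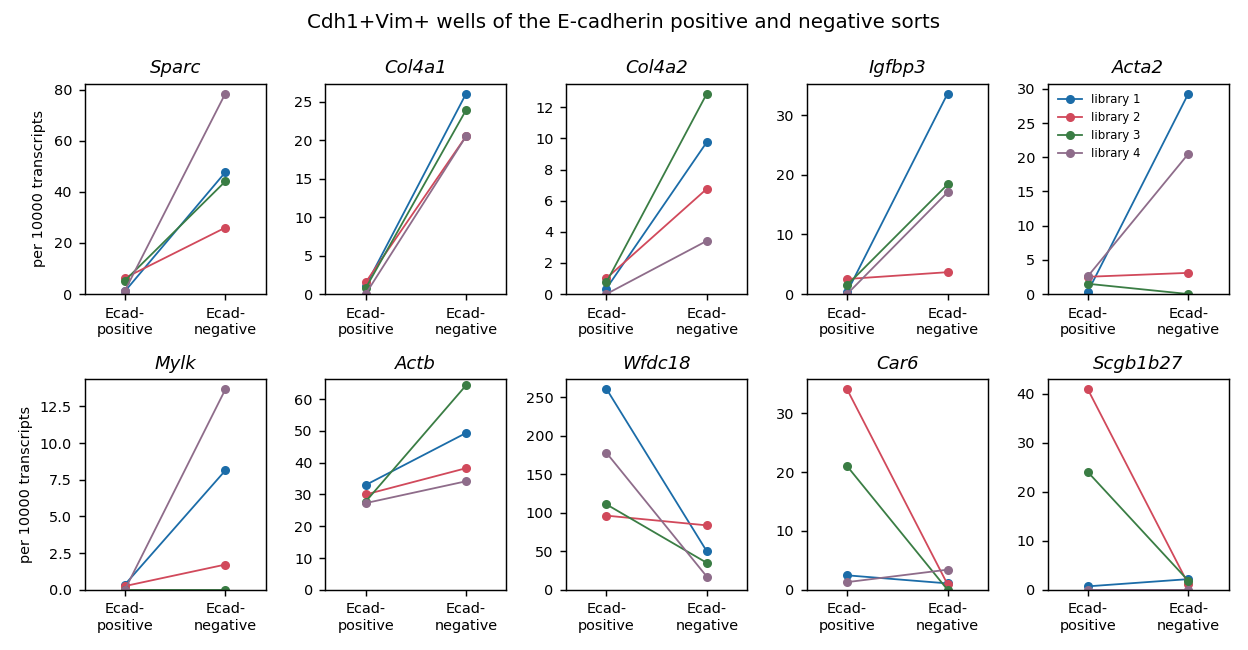
Level per 10000 transcripts of the 10 called genes in the double-positive wells of the Ecad-positive and Ecad-negative sorts, with 1 line per library and linear axes from 0. Sparc, Col4a1, Col4a2, Igfbp3 and Actb rise from Ecad-positive to Ecad-negative in all 4 libraries, Wfdc18 falls in all 4, and Acta2, Mylk, Car6 and Scgb1b27 do not move one way in every library.

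Of 6 tested mesenchymal and matrix genes 3 were called higher in Ecad-negative, and the list came to 1.28, 0.669, 1.09 and 1.64% of transcripts in Ecad-negative against 0.123, 0.199, 0.187 and 0.0520% in Ecad-positive (exact permutation p = 0.13). The endothelial list, with 1 gene tested and none called, came to 0.260, 0.226, 0.184 and 0.513% against 0.0316, 0.0630, 0.158 and 0.0260%. Of 4 tested epithelial genes none was called, with a median of -0.51, and of 7 luminal and milk genes 1 was called lower, with a median of -0.59 against -0.03 over all tested genes. The median of 3 tested basal and myoepithelial genes was 2.40, with 2 called higher, and this list came to 0.803, 0.102, 0.0736 and 0.683% in Ecad-negative against 0.0386, 0.0756, 0.0825 and 0.0390% in Ecad-positive wells (exact permutation p = 0.25).

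The first experiment, which took no part in the choice of genes, has libraries labelled as E-cadherin positive tumour cells, and its classes are given without a test. In its library 1, 7 of 95 wells were double-positive (7.37%, exact interval 3.01 to 14.6%) and 74 were Cdh1-only. In library 2, 8 of 65 wells were double-positive (12.3%, 5.47 to 22.8%) and 12 were Cdh1-only. In library 3, 1 well reached 500 transcripts. In library 2, whose label is E-cadherin positive, 17 wells were Vim-only and 28 held neither gene, against 1 and 13 in library 1, and Epcam was at 1.59 and 1.85 per 10000 in these wells without Cdh1. In library 2 Sparc was at 36.8 per 10000 in double-positive wells (exact Poisson interval 25.8 to 51) and at 7.16 in Cdh1-only wells (3.43 to 13.2), Col4a1 at 18.4 (10.9 to 29.1) and 0.716 (0.0181 to 3.99), and Epcam at 1.02 (0.0259 to 5.70) and 14.3 (8.75 to 22.1). Sparc was higher still in the Vim-only wells, at 60.8 (50.2 to 73), and in the wells with neither gene, at 63 (53.9 to 73.2). Cdh5 gave 0 transcripts in both Cdh1 classes of that library, and Igfbp3 gave 3 transcripts against 0.

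In library 1 of the first experiment the matrix genes were low in both classes. Sparc was at 0.384 per 10000 (0.0465 to 1.39) in double-positive and at 0.893 (0.611 to 1.26) in Cdh1-only wells. Tmsb4x was at 18.8 (15.3 to 22.9) against 28 (26.3 to 29.8), the opposite order to the second experiment. Ltf was at 16.7 (13.4 to 20.6) against 6 (5.23 to 6.86), but at 25.5 (19.4 to 32.9) in the wells with neither gene. In the double-positive wells of the second experiment 1 well held 198 of the 418 Ltf transcripts. Ltf was listed at 0 in both Cdh1 classes of library 2 of the first experiment.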

How the data were processed

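CEL-seq wells of PyMT tumours were read in 3 libraries of the first and 4 of the second experiment. What the authors deposited are expected counts, an estimate of transcripts for each gene in each well without scaling between wells. Every value is 256·ln(256/(256 − k)) with k whole, where 256 is the number of molecular barcodes of 4 bases. The submitters' processing notes name BWA 0.6.2-r126 and mm10. How reads were counted was not stated there.

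Wells with at least 500 transcripts without spike-ins were used. Values were summed per library and class, rounded and fitted in edgeR 4.0.16 (quasi-likelihood test, TMM, filterByExpr, library as a block, R 4.3.3) with Cdh1 and Vim left out. A sum needed at least 3 wells, or 2 within a sort. A gene is called at an adjusted p under 0.05 (Benjamini-Hochberg over all genes tested). The barcode table places the classes in the same libraries, and residuals of a library correlated at 0.00431 to 0.402 between classes. Sums of different libraries differed beyond sampling noise. Exact two-sided permutation tests swapped classes within libraries. Alternatives used DESeq2 1.42.0 and limma 3.58.1 on log2 values. The fits were tested on simulated data. No doublet caller was run. Wells were taken to hold 1 sorted cell each, which was not checked.

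Genes were named by a rule: up to 12 called per direction and comparison, the 5 smallest p-values where fewer were called, and abundant genes of each list. Others were named after their values were seen. The members and gene lists were chosen with earlier results of these data known. Near-identical genes may have shared reads.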

Additional observations from a re-analysis of the deposited data

Results flagged for a closer look

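Both genes were also detected outside the wells compared above, which is why these values are listed. Among the BEn wells sorted from blood, 13 of 60 held Cdh1 and Vim (21.7%, exact interval 12.1 to 34.2%). In the first experiment 7 wells of library 1 and 8 wells of library 2 held both. No library stood apart from the other 3 by Dixon's test in any of 30 groups of 4 values examined in the double-positive wells (levels of called genes, list shares and depth), where chance flags about 1 group in 20.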

How the results depend on the processing

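The number of called genes moved with most settings. For double-positive against Cdh1-only wells the count of 1 became 0 without the replicate block, 0 with only the 2 classes in the fit, 0 with at least 1500 transcripts per well, 5 with no filter on low counts and 5 with limma on means of wells. With only the 2 classes in the fit Igfbp3 did not pass the filter on low counts and was not tested. The count was 2 without wells with Cdh5 and 0 to 2 when 1 library was left out. In the thinned comparison the count of 3 became 1 without the replicate block, 1 with DESeq2, 0 with classes from the thinned values and 0 without wells with Cdh5, and ranged from 0 to 2 when 1 library was left out. With the sort as a term the count of 0 became 1 after thinning (Scgb1b27) and 0 to 2 when 1 library was left out. Within Ecad-positive wells it became 1 after thinning (Scgb1b27) and 0 to 2, and within Ecad-negative wells 1 after thinning (Tmsb4x), 1 with at least 3 wells per sum and 0 to 3 when 1 library was left out. Against Vim-only wells the count of 4 became 0 without the replicate block, 1 after thinning, 16 without wells with Cdh5 and 2 to 13 when 1 library was left out. Between the sorts of the double-positive class the count of 10 became 19 without the well over 20000 transcripts, 6 after thinning and 16 without wells with Cdh5, and was 6 to 13 when 1 library was left out. The cause of these changes was not tested.

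No gene recomputed under these settings changed direction, while 12 differences in list shares, none of which was called, changed sign. Igfbp3 against Cdh1-only wells ranged from 2.66 to 3.54 with adjusted p from 0.000334 to 0.541 in edgeR, DESeq2 or limma. The log2 ratio of depth ranged from 0.198 to 0.483 when 1 library was left out. Leaving out wells with 2 or more marker transcripts of other cell types could not be fitted, since almost no wells were left. Depth limits the main tests to 249 to 272 abundant genes, and to 103 after thinning, and EMT factors lie below that.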

Other observations

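Other gene groups also differed in level between the sorts of the double-positive wells. Immediate early and stress genes, which are switched on within minutes of a stimulus, took 1.85, 0.664, 1.12 and 0.717% of transcripts in the Ecad-negative wells of libraries 1 to 4 and 2.41, 1.26, 1.66 and 1.38% in the Ecad-positive wells, lower in all 4 libraries (exact two-sided permutation p = 0.13, the smallest 4 libraries allow). None of the 8 members tested was called in edgeR. Fos, a subunit of the AP-1 factor, differed by -0.96 (SE 0.37, adjusted p = 0.191) and Zfp36, an RNA decay factor, by -1.59 (SE 0.67, adjusted p = 0.233). The epithelial list took 0.309, 0.461, 0.258 and 0.273% in Ecad-negative and 0.712, 0.487, 0.465 and 0.455% in Ecad-positive double-positive wells, lower in all 4 libraries (exact permutation p = 0.13). The luminal and milk list took 2.28, 4.69, 2.01 and 1.98% against 6.45, 4.67, 3.78 and 5.16%, lower in libraries 1, 3 and 4. In library 2, where it was not lower, 1 Ecad-negative well held 596 of the 2257 Wfdc18 transcripts of the class.

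Wells of the second experiment under 500 transcripts, tumour and blood wells together, were left out of every class. Cdh1 gave 1, 1, 5 and 7 transcripts and Vim 1, 5, 9 and 24 in the wells of libraries 1 to 4 that fell under that depth. These counts are summed over wells and do not show that any single well held both genes.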
